A study of Mus musculus with 20 samples.

Results

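The genes described here are 10 genes of the transforming growth factor beta (TGF-beta) pathway, taken by name from the 35579 mouse genes that could be quantified. They are the ligand genes Tgfb1, Tgfb2, Tgfb3 and Inhba, the latency genes Ltbp1 and Ltbp2, the receptor genes Tgfbr1 and Tgfbr2, and the feedback genes Smad7 and Skil. All 10 were detected in every library of both tissues and passed the filter on low counts in skin and in muscle. The RNA came from hindlimb skin and hindlimb muscle of wild-type (WT) C57BL/6J mice, 70 days after treatment of the left hindlimb. Sham mice were not irradiated, FLASH mice received 35 Gy in the accelerator's ultra-high dose rate mode, and CONV mice received 35 Gy of the same electrons in its conventional mode, with 3 sham, 4 FLASH and 3 CONV libraries per tissue. The design asks how late effects on the 2 tissues differ between the 2 ways of delivering 1 dose. The sources used here give no age. Whether replicates were different mice is not stated, and the p-values below therefore reflect variation among these libraries, part of which may be technical.

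TGF-beta ligands are secreted in a latent complex, in which the cleaved propeptide stays bound to the growth factor and is tethered to the extracellular matrix by latent TGF-beta binding proteins. Once released, the ligand binds TGFBR2, which recruits and phosphorylates TGFBR1, and the receptor pair then phosphorylates SMAD2 and SMAD3. These enter the nucleus with SMAD4, raise transcription of matrix genes and also switch on their own inhibitors, among them Smad7 and Skil. In skin, the pathway is known for its part in wound repair, hair follicle regression and the fibrosis that can follow irradiation.

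The skin libraries held 24396463 to 33250762 estimated counts and the muscle libraries 10198699 to 12336479. Epidermal (basal keratinocyte) markers summed to 5835 to 27634 CPM (counts scaled to a common library size) in skin against 26.4 to 36.9 in muscle, and fast skeletal muscle markers to 52275 to 89308 CPM in muscle, which fits both tissue labels. Skin sham replicate 1 and skin FLASH replicate 2 stood apart with 22957 and 23091 CPM of fast muscle markers, against 57.9 to 3151 in the other 8 skin libraries. In 2 skin and 5 muscle records the deposited file bore a name belonging to some other library of the same tissue. These were sham replicate 3 and FLASH replicate 1 in skin, and sham replicates 2 and 3 with FLASH replicates 1, 2 and 3 in muscle. No CONV file was affected, so the central comparison set the 3 CONV libraries of a tissue against its other 7, which holds under either assignment. Whole tissue was sequenced, in which fewer cells of a type and less RNA per cell cannot be told apart.

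Upstream sequences of 4 members are shown, chosen by their values in these libraries. Tgfb1 and Inhba had higher means in CONV skin and Tgfb2 a lower one. Of these 3 differences only that of Tgfb1 had an adjusted p under 0.05 (edgeR). Ltbp1 has 2 start sites whose transcripts differed in share between the tissues. Each sequence runs 5′ to 3′ over the bases before a RefSeq transcription start (assembly GRCm38.p6). Capitals mark CAGAC or its reverse complement GTCTG, letters that SMAD3 and SMAD4 bind, searched on both strands.
Tgfb1, chr7:25686752-25687001, plus strand: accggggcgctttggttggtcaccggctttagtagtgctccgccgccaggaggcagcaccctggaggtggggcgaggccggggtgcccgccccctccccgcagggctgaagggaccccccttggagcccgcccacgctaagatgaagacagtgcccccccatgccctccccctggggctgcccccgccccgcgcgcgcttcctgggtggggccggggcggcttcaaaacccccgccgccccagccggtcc
Inhba, chr13:16011601-16011850, plus strand: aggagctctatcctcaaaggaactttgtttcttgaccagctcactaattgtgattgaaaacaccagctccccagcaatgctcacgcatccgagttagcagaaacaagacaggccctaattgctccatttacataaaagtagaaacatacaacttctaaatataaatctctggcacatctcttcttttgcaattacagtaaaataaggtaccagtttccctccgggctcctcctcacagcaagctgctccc
Tgfb2, chr1:186705990-186706239, minus strand: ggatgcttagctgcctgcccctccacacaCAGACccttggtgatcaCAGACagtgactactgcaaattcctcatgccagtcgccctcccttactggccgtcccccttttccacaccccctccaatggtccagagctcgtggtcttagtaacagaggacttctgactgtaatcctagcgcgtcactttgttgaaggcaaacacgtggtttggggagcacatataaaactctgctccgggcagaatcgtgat
Ltbp1 long form, chr17:75005279-75005528, plus strand: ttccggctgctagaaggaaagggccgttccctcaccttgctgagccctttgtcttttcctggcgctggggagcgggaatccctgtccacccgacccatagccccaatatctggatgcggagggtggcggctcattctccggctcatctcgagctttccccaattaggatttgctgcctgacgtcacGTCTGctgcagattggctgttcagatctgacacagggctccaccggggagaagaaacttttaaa
Ltbp1 short form, chr17:75178531-75178780, plus strand: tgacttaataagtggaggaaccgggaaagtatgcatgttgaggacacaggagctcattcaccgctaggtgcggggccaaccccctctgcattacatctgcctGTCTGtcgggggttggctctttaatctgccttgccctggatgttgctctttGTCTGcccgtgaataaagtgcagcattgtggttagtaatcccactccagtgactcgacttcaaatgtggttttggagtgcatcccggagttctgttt
The Tgfb1 stretch was 75.2% G and C and the Inhba stretch 43.2%, and neither held a match. Tgfb2 held 2 matches, the long-form start of Ltbp1 held 1 and the short-form start 2. RefSeq start sites were found for 7 members, with 9 such stretches, of which 6 held at least 1 match. Among all 32851 stretches of this length in the table, 42.2% held one. These letters are short and frequent, and a match is a description of the sequence only.

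In skin, Tgfb1 passed the threshold narrowly in CONV against the other 7 libraries, and Inhba and Skil missed it narrowly. Their adjusted p-values of 0.0487, 0.0525 and 0.0549 (edgeR) do not set Tgfb1 apart from the other 2. Tgfb1 was 2.27-fold higher in the 3 CONV libraries than in the other 7, Inhba 7.71-fold and Skil 1.84-fold. Of the 10 members, 1 passed the threshold (adjusted p under 0.05 by edgeR's quasi-likelihood test over 20026 genes), where 1.65% of all genes tested did. At an unadjusted p under 0.05 there were 3 members, all higher, beside 14.1% of genes higher and 23.4% in either direction. The fold changes of 9 of the 10 members were above 0, with a median log2 fold change of 0.58, beside 10091 of 20026 genes and a median of 0.0047 over all genes. For 2 members, Tgfb1 and Skil, every CONV library lay above every other skin library, which was the case for 3.73% of all genes. No member lay below without overlap, as 2.78% of genes did.

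**Figure D1:**
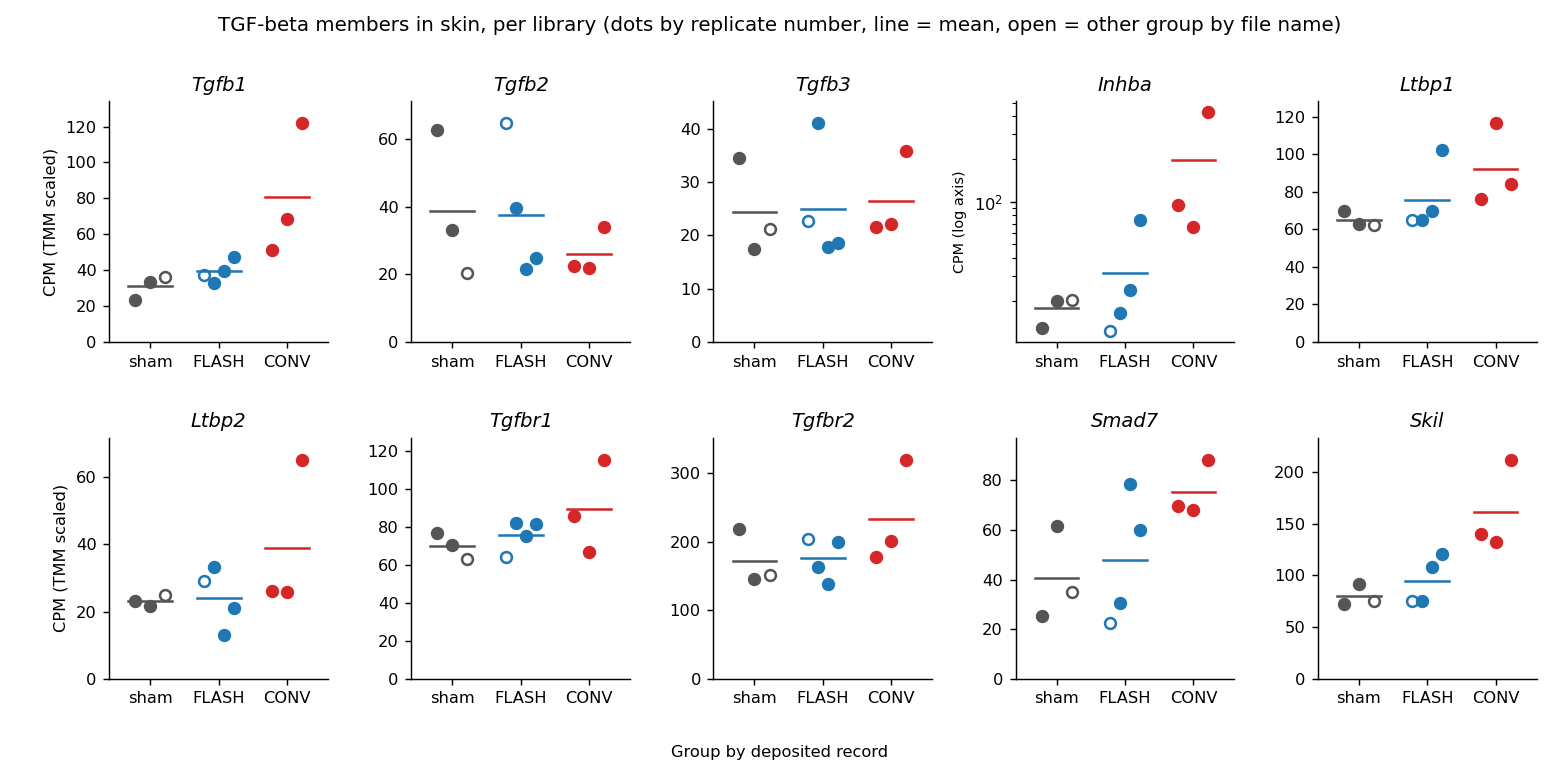
CPM of each member in the 10 skin libraries (vertical axis, logarithmic for Inhba only), by treatment, with replicates from left to right, a line at the group mean, and open circles for the 2 libraries whose file name puts them in another group. Every CONV library was above all others for Tgfb1 and Skil, and CONV replicate 3 was the highest of all for 7 of the 10 members.

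Tgfb1 (ENSMUSG00000002603, chr7:25687002-25705077, plus strand) encodes the ligand best known for driving fibroblasts to make matrix. Its level was 23.2, 33.5 and 36.4 CPM in sham replicates 1, 2 and 3, 37.2, 33.1, 39.6 and 47.2 CPM in FLASH replicates 1 to 4, and 51.4, 68.4 and 121.8 CPM in CONV replicates 1 to 3. The CONV libraries did not overlap the others, and the sham and FLASH libraries did overlap. Against the other 7 the log2 fold change was 1.18 ± 0.25 (SE; 95% interval 0.62 to 1.74), with an adjusted p of 0.0487 by edgeR. The call was narrow. It was lost when any 1 of 8 of the 10 libraries was left out, and held without FLASH replicate 4 or CONV replicate 1 (adjusted p 0.0211 and 0.0140, edgeR). Without CONV replicate 3 the log2 fold change was 0.74 ± 0.23 (adjusted p 0.27, edgeR), and without CONV replicate 2 it was 1.28 ± 0.29 (0.0736). Without any 1 of the sham libraries or FLASH replicates 1 to 3 it was 1.101 to 1.21 (adjusted p 0.0781 to 0.115). Without the 2 muscle-rich libraries it was 1.02 ± 0.26 (0.199), and without the 2 of disagreeing file name 1.20 ± 0.31 (0.236), both by edgeR.

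Inhba (ENSMUSG00000041324, chr13:16011851-16031621, plus strand) encodes the beta A subunit of activin A, a relative of TGF-beta that signals through the same SMAD2 and SMAD3 by its own receptors and is known from healing wounds. It had the widest range of the members in skin. Its level was 12.8, 19.97 and 20.2 CPM in sham, 12.2, 16.3, 23.8 and 73.8 CPM in FLASH, and 94.9, 65.8 and 427.8 CPM in CONV, each in order of replicate. FLASH replicate 4 lay above CONV replicate 2, so the groups overlapped at that point, and the other 6 libraries lay below 24 CPM. In CONV against the other 7 its log2 fold change was 2.95 ± 0.65 (95% interval 1.499 to 4.39), with an adjusted p of 0.0525 by edgeR. It was 1.64 ± 0.60 without CONV replicate 3 and 3.49 ± 0.51 without FLASH replicate 4 (adjusted p 0.286 and 0.0076, edgeR).

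Tgfb2 and Tgfb3 encode the other TGF-beta isoforms, of which Tgfb2 is known for its part in the hair follicle cycle. Tgfb2 (ENSMUSG00000039239, chr1:186622792-186705989, minus strand) was 62.7, 33.2 and 20.3 CPM in sham, 64.7, 39.5, 21.6 and 24.7 CPM in FLASH, and 22.6, 21.7 and 34.0 CPM in CONV. The 2 highest libraries, sham replicate 1 and FLASH replicate 1, were also the 2 with the lowest sum of hair shaft markers, 4.83 and 5.90 CPM against 234 to 9772 CPM in the other 8. The same 2 libraries had the highest adipocyte marker sums in skin, 1008 and 805 CPM against 90.8 to 365 CPM in the other 8. No fit took the adipocyte markers into account. The CONV difference was a log2 fold change of -0.54 ± 0.41 (95% interval -1.44 to 0.36), which did not pass the threshold. With the mean log2 CPM of the hair shaft markers as a covariate it was -0.11 ± 0.28. Tgfb3 (ENSMUSG00000021253, chr12:86056745-86079041, minus strand) was 34.5, 17.5 and 21.1 CPM in sham, 22.6, 41.0, 17.8 and 18.5 CPM in FLASH, and 21.6, 22.1 and 35.8 CPM in CONV. Its 3 highest values were in FLASH replicate 2, CONV replicate 3 and sham replicate 1, and the first and last of these are the muscle-rich libraries. The muscle libraries themselves, scaled separately, held 16.9 to 23.4 CPM of Tgfb3. What muscle tissue contributed to the skin values was not tested. The CONV difference was 0.11 ± 0.31 (95% interval -0.57 to 0.79), 0.41 ± 0.19 without the muscle-rich libraries and -0.17 ± 0.33 without CONV replicate 3.

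Of the latency genes, Ltbp1 encodes the main carrier of latent TGF-beta, while LTBP2 is a microfibril protein that does not bind it. Ltbp1 (ENSMUSG00000001870, chr17:75005568-75392512, plus strand) was 69.8, 62.8 and 62.3 CPM in sham, 65.2, 65.2, 70.0 and 102.0 CPM in FLASH, and 76.1, 116.5 and 84.1 CPM in CONV. CONV lay above sham in every library and overlapped FLASH through replicate 4. Against the other 7 the log2 fold change was 0.39 ± 0.18 (95% interval -0.02 to 0.79; adjusted p 0.232, edgeR), and it was 0.18 without CONV replicate 2. Ltbp2 (ENSMUSG00000002020, chr12:84783212-84876532, minus strand) was 23.1, 21.7 and 25.0 CPM in sham, 29.1, 33.2, 12.9 and 21.2 CPM in FLASH, and 26.1, 25.7 and 65.2 CPM in CONV. CONV replicate 3 stood alone, and the other 2 CONV libraries lay within the FLASH range. The log2 fold change was 0.73 ± 0.33 and fell to 0.13 without that library.

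The receptor genes overlapped between all groups. Tgfbr1 (ENSMUSG00000007613, chr4:47353222-47414931, plus strand), the type I receptor kinase, ranged from 63.1 to 76.6 CPM in sham, 64.0 to 81.8 in FLASH and 66.8 to 115.1 in CONV. Tgfbr2 (ENSMUSG00000032440, chr9:116084293-116175360, minus strand), the ligand-binding type II receptor, ranged from 145.5 to 218.3, 138.7 to 204.2 and 177.3 to 319.7 CPM. The highest library was CONV replicate 3 for both genes. The log2 fold changes of CONV against the other 7 were 0.29 ± 0.16 (95% interval -0.06 to 0.65) for Tgfbr1 and 0.43 ± 0.21 (-0.04 to 0.89) for Tgfbr2, and neither passed the threshold. Without CONV replicate 3 they were 0.054 and 0.12.

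The feedback genes are switched on by the pathway they restrain. Skil (ENSMUSG00000027660, chr3:31095058-31122577, plus strand) encodes SnoN, a nuclear protein that binds SMADs and represses their targets. It was 71.7, 91.6 and 75.3 CPM in sham, 75.0, 74.8, 107.6 and 120.3 CPM in FLASH, and 140.1, 131.9 and 211.6 CPM in CONV. The CONV libraries did not overlap the others. The log2 fold change was 0.88 ± 0.20 (95% interval 0.43 to 1.33) with an adjusted p of 0.0549 by edgeR, and 0.62 ± 0.22 without CONV replicate 3. Smad7 (ENSMUSG00000025880, chr18:75367529-75395935, plus strand) encodes the inhibitory SMAD that directs the receptors to degradation. It was 25.3, 61.8 and 35.1 CPM in sham, 22.4, 30.4, 78.4 and 59.9 CPM in FLASH, and 69.6, 67.9 and 88.3 CPM in CONV. CONV lay above sham in every library, and FLASH replicate 3 lay within the CONV range. Outside CONV, both Smad7 and Skil were highest in FLASH replicates 3 and 4 and sham replicate 2. The hair shaft markers summed to 9772, 6109 and 6725 CPM in these, against at most 664 in the other sham and FLASH libraries. In CONV replicates 1 to 3 the hair shaft sums were 8141, 433 and 3130 CPM. The part of hair content in the Smad7 and Skil values was not tested. The log2 fold change was 0.76 ± 0.37 (95% interval -0.06 to 1.58; adjusted p 0.244, edgeR).

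Single libraries weighed on these values. CONV replicate 3 was the highest of the 10 skin libraries for 7 of the 10 members, where it was the highest for 18.4% of all genes tested. Among the 7 libraries outside CONV, FLASH replicate 4 was the highest for 4 members (Tgfb1, Inhba, Ltbp1 and Skil), against 17.9% of all genes. Both counts were made after the values were seen.

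**Figure D2:**
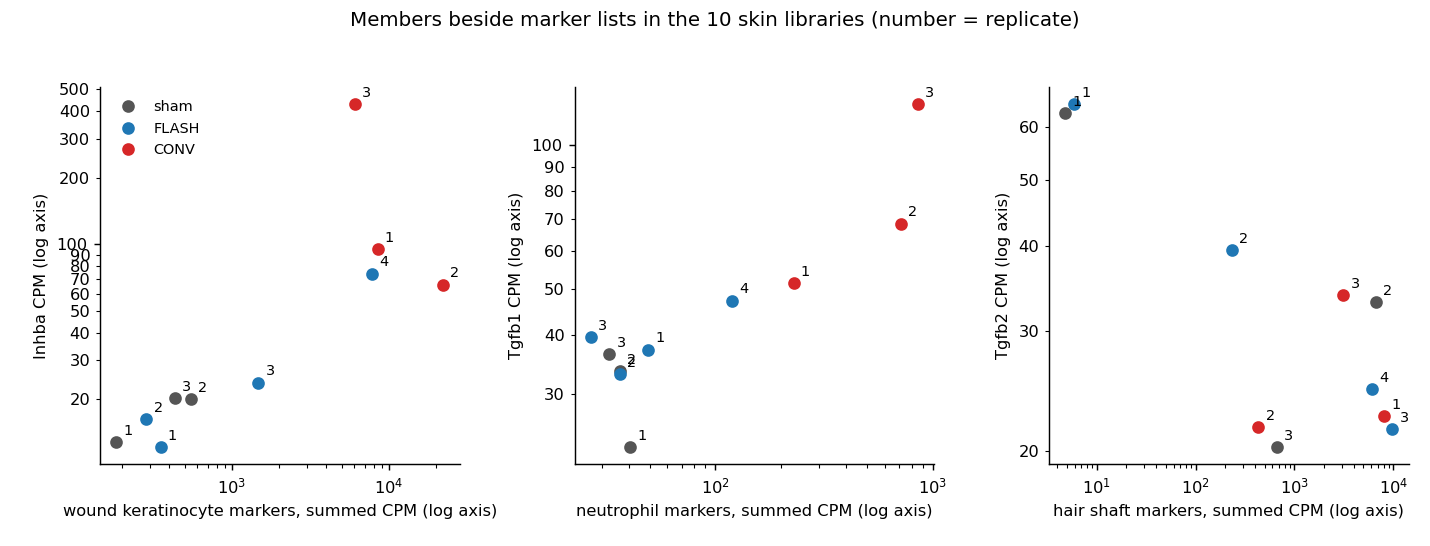
Inhba, Tgfb1 and Tgfb2 in CPM (vertical, log axis) beside the summed CPM of a marker list (horizontal, log axis) in the 10 skin libraries, coloured by treatment and numbered by replicate. The lists are wound keratinocyte, neutrophil and hair shaft markers. FLASH replicate 4 lay with the CONV libraries in the Inhba panel, and sham replicate 1 and FLASH replicate 1 lay apart in the Tgfb2 panel.

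Markers of other cells were summed in the same skin libraries. The 6 wound keratinocyte markers, keratins and cornified envelope genes of injured epidermis, summed to 184 to 547 CPM in sham, 285 to 7748 in FLASH and 6040 to 22140 in CONV. The FLASH value of 7748 was replicate 4, the FLASH library with the most Inhba, while the CONV library with the most Inhba had the lowest sum of the 3. The 9 neutrophil markers summed to 229 to 852 CPM in CONV and 26.8 to 119.5 in the other 7, with 5 of the 8 tested past the threshold, all higher. The 10 macrophage markers summed to 527 to 1090 CPM in CONV and 258 to 641 in the others, with 2 called higher, and the 5 platelet markers, whose cells store TGF-beta protein, to 24.3 to 44.8 and 16.7 to 33.3 CPM, with none called. The 10 fibroblast markers summed to 1439 to 5838 CPM in CONV and 912 to 1998 in the others (3 called higher), and the 7 endothelial markers to 338 to 884 and 135 to 397 CPM (1 called higher). Of these lists, only the neutrophil sums did not overlap between CONV and the other 7. Among all single genes tested in skin, 1.58% were called higher and 3.73% were higher in CONV without overlap. The 7 basal keratinocyte markers (6654 to 27634 CPM in CONV, 5835 to 10005 elsewhere, none called), the 6 pericyte and smooth muscle markers (425 to 807 and 228 to 1295, 1 called higher) and the 6 adipocyte markers (114 to 344 and 90.8 to 1008, none called) overlapped as well. The pericyte and smooth muscle sums overlapped only through the muscle-rich libraries, sham replicate 1 and FLASH replicate 2, at 1159 and 1295 CPM. The other sham and FLASH libraries lay at 228 to 375 CPM, below all CONV libraries. In muscle this list summed to 1222 to 1568 CPM. No marker was at 0 in all skin libraries. The part of these cells in the members' values was not tested. The fast muscle markers, with a median log2 fold change of -1.65, were not called for any of the 10 genes.

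The rest of the pathway was compared in CONV skin against the other 7 in the same fit. Of 56 further pathway genes, all tested, 6 passed the threshold and all 6 were higher, beside the 1.58% of all genes called higher. The target list held 5 of them among its 12 genes, and 11 of the 12 had values above 0, with a median log2 fold change of 1.23. The fibrillar collagen genes Col3a1, Col1a1 and Col1a2 rose by log2 fold changes of 1.87 ± 0.31, 1.58 ± 0.29 and 1.44 ± 0.26, and the AP-1 gene Junb by 1.53 ± 0.32 (adjusted p 0.0352 to 0.0474, edgeR). Ccn2 had a log2 fold change of -0.07 ± 0.37 and Acta2, the smooth muscle actin of myofibroblasts, 0.26 ± 0.20. Ccn2 and Acta2 were picked after their values were seen, as established targets outside the 5. Among 9 genes of latency and activation, Mmp14, a membrane-bound protease that can release latent TGF-beta, rose from 168.4 ± 33.8 CPM (SD, n = 7) to 497.3 ± 291.7 CPM (n = 3), a log2 fold change of 1.57 ± 0.29 (adjusted p 0.0387, edgeR). Like the Tgfb1 call, the calls of Mmp14, Col3a1, Col1a1, Col1a2 and Junb were lost when most single libraries were left out, and each held in 2 of 10 such fits. Without CONV replicate 3 the values were 0.99 for Mmp14 and 1.47 for Col3a1.

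In the other 4 pathway lists no gene was called by edgeR. Among 11 other ligands and antagonists, Bmp4, a ligand of the bone morphogenetic branch, had a log2 fold change of -0.99 ± 0.25 and Fstl1 of 1.17 ± 0.33. Of 9 co-receptors and other receptors, Eng (endoglin) and Acvrl1, which are best known from endothelium, had 1.57 ± 0.41 and 0.96 ± 0.30. Of 7 SMAD genes, Smad9 and Smad5, transducers of the bone morphogenetic branch, had -1.12 ± 0.29 and -0.32 ± 0.12. Of 8 other negative regulators, Smurf1, a ubiquitin ligase, had 0.49 ± 0.13 and Pmepa1 1.58 ± 0.51. The adjusted p-values of these 8 genes were 0.0708 to 0.153 (edgeR). Without CONV replicate 3 the values were 0.69 for Eng, 0.63 for Acvrl1, 0.45 for Fstl1 and 0.90 for Pmepa1.

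The comparisons between single treatments in skin used the record labels. In CONV against sham, no member was called by edgeR and neither was any other gene (0% of 20026), while 4 members had an unadjusted p under 0.05, beside 20.1% of all genes. DESeq2 called 3 members and 1630 of 20026 genes. These libraries did not overlap for 6 members, Tgfb1, Inhba, Ltbp1, Ltbp2, Smad7 and Skil, all higher in CONV, where 13.2% of genes were higher and 14.9% lower without overlap. The log2 fold changes were 1.39 ± 0.31 for Tgfb1, 3.48 ± 0.89 for Inhba and 1.03 ± 0.25 for Skil (adjusted p 0.127, 0.129 and 0.127, edgeR), and Inhba was at 2.18 without CONV replicate 3. The CONV libraries are shared with the next comparison.

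In FLASH against CONV, no member and no other gene was called by edgeR (0% of 20026). At an unadjusted p under 0.05 there were 3 members, beside 12.7% of genes. DESeq2 called 1 member, Inhba, and 457 of 20026 genes. The log2 fold changes were -1.05 ± 0.29 for Tgfb1, -2.64 ± 0.77 for Inhba and -0.78 ± 0.23 for Skil (adjusted p 0.27, 0.273 and 0.273, edgeR). Without CONV replicate 3 they were -0.60, -1.34 and -0.52. For 2 members, Tgfb1 and Skil, every CONV library lay above every FLASH library, as for 4.58% of genes, and no member was lower in this way (3.76% of genes).

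In FLASH against sham, no member was called by edgeR or DESeq2, none had an unadjusted p under 0.05, beside 0.659% of genes in either direction and 0.459% higher, and none was without overlap, where 0.839% of genes were higher and 0.759% lower without it. By edgeR, 0% of 20026 genes were called, and by DESeq2 4 genes.  The fold changes of 9 members were above 0, from 0.04 to 0.84 on the log2 scale, and that of Tgfb2 was -0.04. The intervals were wide. For Tgfb1 the log2 fold change of 0.34 had a 95% interval of -0.31 to 0.99, and for Inhba 0.84 had one of -0.91 to 2.58, so these libraries do not show that FLASH and sham skin were alike. The Inhba value rested on 1 library: without FLASH replicate 4 it was -0.02.

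In muscle no member passed the threshold, and the treatment groups overlapped for 9 of the 10. No member was called in CONV against the other 7 by edgeR or DESeq2 (which gave Ltbp2 no adjusted p), where 0.0612% of 13080 genes were called by edgeR, and 1 had an unadjusted p under 0.05, beside 5.83% of genes higher and 11.9% in either direction. DESeq2 called 159 of 13080 genes. No member was without overlap, where 1.86% of genes were higher and 2.69% lower. The fold changes of 4 members were above 0 and those of 6 below, with a median log2 fold change of -0.02. The intervals below show which changes these libraries leave possible.

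**Figure D3:**
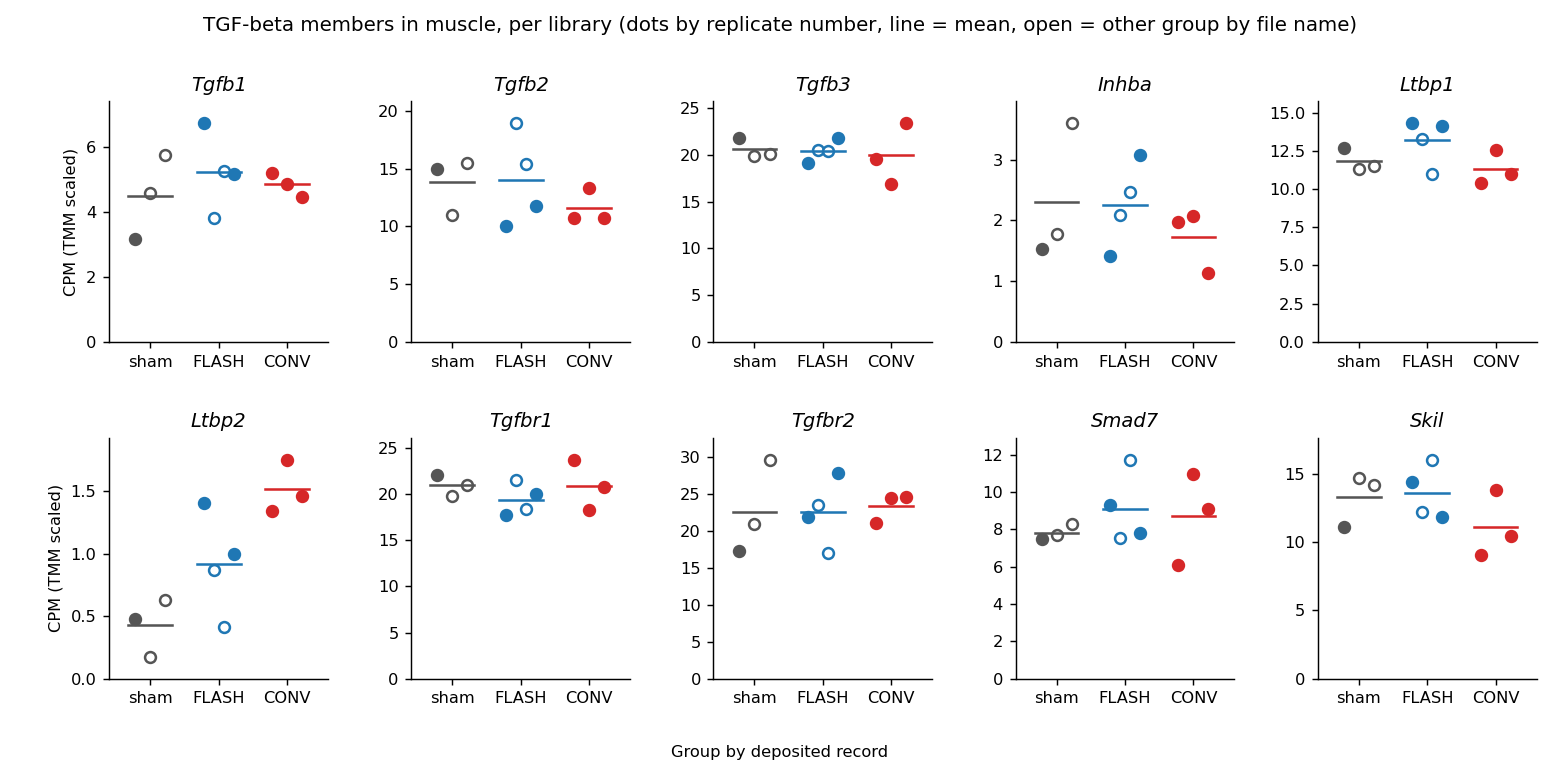
CPM of each member in the 10 muscle libraries (vertical axis), by treatment, with replicates from left to right, a line at the group mean, and open circles for the 4 libraries whose file name puts them in another group. The groups overlapped for 9 members in every pair, and the 3 sham libraries of Ltbp2 lay below the 3 CONV libraries.

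Among the ligands, Tgfb1 was 3.16, 4.58 and 5.76 CPM in sham, 6.72, 3.82, 5.25 and 5.16 CPM in FLASH and 5.19, 4.86 and 4.47 CPM in CONV, with log2 fold change -0.02 ± 0.20 (95% interval -0.44 to 0.40). Inhba was between 1.14 and 3.598 CPM in all 10 libraries, at 14.2 to 39.6 estimated counts each, with log2 fold change -0.38 ± 0.31 (-1.05 to 0.28). Tgfb2 ranged from 10.1 to 18.9 CPM and Tgfb3 from 16.9 to 23.4 CPM over the 10 libraries. Their log2 fold changes were -0.25 ± 0.18 and -0.03 ± 0.10, so a change of Tgfb3 beyond -0.23 or 0.18 lay outside its interval. The highest and lowest Tgfb3 values were both in CONV libraries.

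Receptors and feedback genes overlapped between the muscle groups too. Tgfbr1 ranged from 17.7 to 23.7 CPM and Tgfbr2 from 17.0 to 29.6 CPM, with log2 fold changes of 0.07 ± 0.10 and 0.06 ± 0.16. Smad7 was 7.48 to 8.28 CPM in sham, 7.56 to 11.7 in FLASH and 6.09 to 10.99 in CONV, a log2 fold change of 0.05 ± 0.17. Skil was 11.1 to 14.8, 11.9 to 16.0 and 9.04 to 13.9 CPM, a log2 fold change of -0.27 ± 0.14 (95% interval -0.57 to 0.04). Ltbp1 ranged from 10.4 to 14.3 CPM, a log2 fold change of -0.14 ± 0.11.

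Ltbp2 was close to the detection limit in muscle. Its estimated counts ran from 2.02 to 7.00 per sham library, from 4.02 to 18.1 per FLASH library and from 15.0 to 22.2 per CONV library. In CPM the sham libraries were at 0.48, 0.17 and 0.63, the FLASH libraries at 1.41, 0.87, 0.41 and 1.00, and the CONV libraries at 1.34, 1.75 and 1.46. All 3 CONV libraries lay above all sham libraries, and FLASH replicate 1 lay within the CONV range. Ltbp2 was the 1 member without overlap between CONV and sham, where 6.96% of genes were higher and 8.53% lower without it. No member was without overlap between CONV and FLASH (3.98% of genes higher, 4.77% lower in CONV) or between FLASH and sham (2.01% and 1.80%). The log2 fold change was 1.08 ± 0.41 against the other 7 (adjusted p 0.309, edgeR) and 1.84 ± 0.49 against sham (0.29). With files assigned by library name the latter was 1.35 ± 0.52 (0.205).

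The remaining muscle comparisons called no member either, by edgeR or by DESeq2, which gave Ltbp2 no adjusted p in the first and second of them. In CONV against sham, 1 member (Ltbp2, higher) had an unadjusted p under 0.05, beside 10.0% of genes in either direction and 4.79% higher, and edgeR called 0.00765% of genes. In FLASH against CONV, 0 members did, beside 8.30% of genes in either direction and 4.23% higher, and edgeR called 0.00765%. In FLASH against sham, 1 member (Ltbp2, higher) did, beside 2.50% and 1.62%, and edgeR called 0% of 13080 genes. DESeq2 called 49, 41 and 1 of 13080 genes in CONV against sham, FLASH against CONV and FLASH against sham. In FLASH against CONV the members' log2 fold changes ran from -0.70 (Ltbp2) to 0.37 (Inhba), and in FLASH against sham from -0.11 (Tgfbr1) to 1.14 (Ltbp2). These 3 comparisons share libraries and depend on the file assignment of 4 of the 7 sham and FLASH libraries.

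The other pathway genes were not called in muscle CONV against the other 7 by edgeR, with 53 of 56 tested and 13 at an unadjusted p under 0.05, 3 higher and 10 lower, beside 5.83% of all genes higher and 11.9% in either direction. Smad3, the SMAD that carries most of the matrix response, had a log2 fold change of -0.50 ± 0.11 (adjusted p 0.107), and Smad1, of the bone morphogenetic branch, 0.33 ± 0.15. The receptor genes Bmpr1a and Acvr1 had -0.34 ± 0.09 and -0.37 ± 0.13. Mmp14 and Col3a1, which rose in skin, had -0.51 ± 0.16 and -0.76 ± 0.31, and Postn, a matrix protein of repairing tissue, had 1.15 ± 0.41. The binding protein gene Ltbp3 had -0.26 ± 0.09, the ligand-binding proteoglycan gene Dcn -0.52 ± 0.22, the activin antagonist gene Fst 0.42 ± 0.20, and the negative regulators Ski and Ppm1a -0.22 ± 0.08 and -0.20 ± 0.08. The adjusted p-values of these 12 genes were 0.107 to 0.421 (edgeR). Neutrophil markers in muscle summed to 5.52 to 9.48 CPM in CONV and 2.78 to 4.30 in the others, without overlap, with 2 of 9 tested and 0 called. Among all single genes tested in muscle, 1.86% were higher in CONV without overlap. Hair shaft markers summed to 91.9 CPM in muscle FLASH replicate 4 and to at most 8.77 in the other 9 libraries. Fibroblast markers in muscle summed to 161 to 228 CPM in CONV and 208 to 361 in the others, with 0 of 10 called and all 10 fold changes below 0. The share of all genes below 0 is not given here, so these 10 are not shown to be unusual. The part of these cells in the muscle values was not tested.

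**Figure D4:**
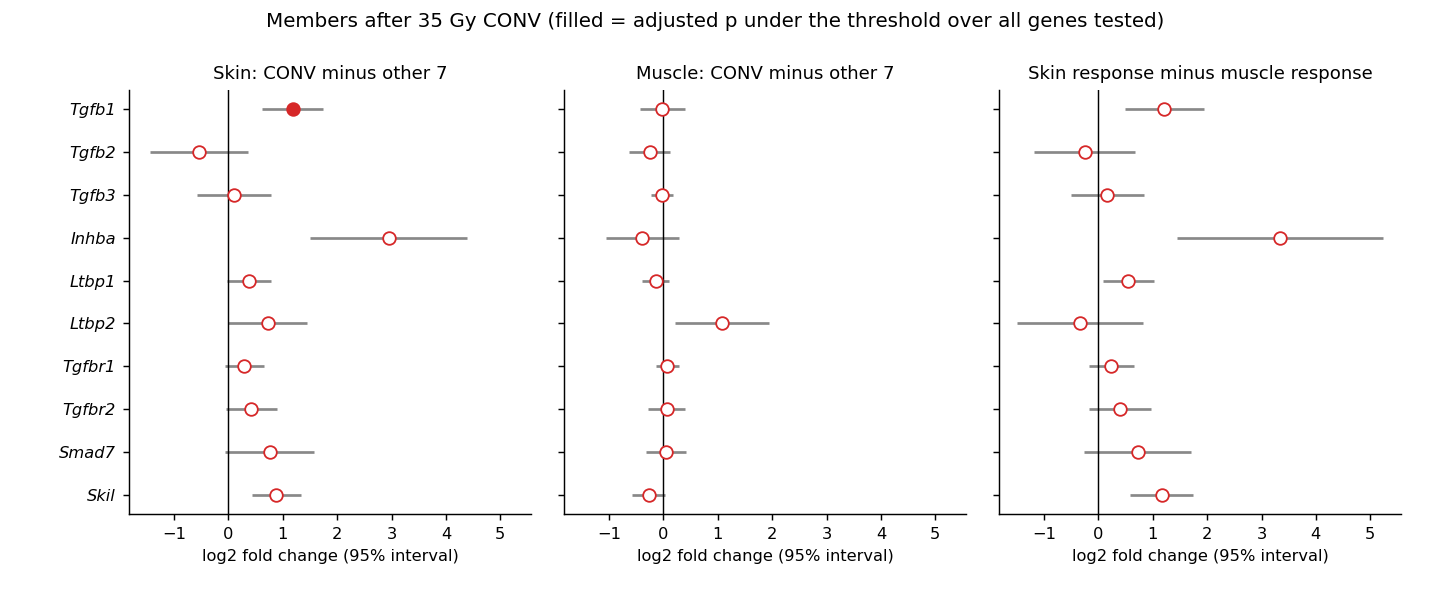
Log2 fold changes of the 10 members with 95% intervals (horizontal axis) for CONV against the other 7 libraries in skin and in muscle, and for the difference between these 2 responses, with a filled point where the adjusted p passed the threshold. Tgfb1 in skin is the 1 filled point, and the intervals of Tgfb1, Inhba, Ltbp1 and Skil in the right panel do not reach 0.

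Whether the CONV response differed between the tissues was tested directly over all 20 libraries. No member passed by edgeR, where 0.109% of 19199 genes did. At an unadjusted p under 0.05 there were 4 members, all higher, beside 9.70% of genes higher and 16.4% in either direction. DESeq2 called 3 members and 467 of 19199 genes. The difference of log2 fold changes (skin minus muscle) was 1.17 ± 0.28 for Skil, 3.34 ± 0.90 for Inhba, 1.21 ± 0.35 for Tgfb1 and 0.55 ± 0.22 for Ltbp1 (adjusted p 0.0792, 0.101, 0.113 and 0.237, edgeR). Without skin CONV replicate 3 it was 2.07 for Inhba and 0.79 for Tgfb1, and without skin CONV replicate 2 it was 0.35 for Ltbp1. For the other 6 members it ran from -0.34 (Ltbp2) to 0.72 (Smad7). Of the 56 other pathway genes, Mmp14 (2.10 ± 0.36, adjusted p 0.0343) and Col3a1 (2.64 ± 0.49, 0.0459) passed by edgeR, both higher, as 0.0885% of genes were. Skin and muscle were separate batches in the labels, and what tissue and what batch contributed cannot be told apart.

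Levels between genes were compared in TPM, the deposited measure that divides by transcript length. In skin the median over 10 libraries was highest for Tgfbr2 (70.0 TPM), followed by Tgfb1 (52.1), Ltbp1 (51.7), Smad7 (51.0), Tgfbr1 (42.1), Skil (33.2), Tgfb2 (24.3), Tgfb3 (12.97), Ltbp2 (10.2) and Inhba (7.55). Tgfb1, Ltbp1, Smad7 and Tgfbr1 overlapped widely and have no order among them. These medians pool the treatments: in the CONV libraries Inhba was at 28.2, 28.3 and 141.9 TPM, above Tgfb2, Tgfb3 and Ltbp2 in each, and in replicate 3 also above Tgfbr2 (121.8 TPM). In muscle Tgfb3 (8.38 TPM), Tgfb2 (8.28) and Tgfbr1 (8.06) had the highest medians and could not be separated. Tgfbr2 (6.70), Ltbp1 (5.82), Tgfb1 (3.96), Smad7 (3.93) and Skil (3.92) came next, and Inhba (0.62) and Ltbp2 (0.27) were lowest. For each of the 10 members the lowest skin library exceeded the highest muscle library in TPM, with Tgfb3 the closest (10.4 against 10.2). The share of all genes that did so was not counted, so nothing particular to the members follows from it. The 10 most abundant genes took 60.0% to 65.1% of all counts in muscle and 4.25% to 12.9% in skin, which lowers every other gene in muscle on this scale.

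Several of these gene levels contained a large share of transcripts annotated as non-coding. In skin such transcripts of Tgfb1 (retained introns, a processed transcript and a transcript subject to nonsense-mediated decay) made up 60.2%, 63.5% and 60.5% of the gene's TPM in sham, while the FLASH libraries had 61.0%, 56.8%, 52.3% and 52.0% and the CONV libraries 46.8%, 43.9% and 41.4%. The CONV shares lay below all others. In how many other genes the non-coding share was lower in CONV was not counted, so this is not shown to be particular to Tgfb1. The protein-coding Tgfb1 transcripts were at 53.1 ± 31.8 TPM (SD, n = 3) in CONV, with a lowest value of 31.96, and 20.01 ± 6.42 TPM (n = 7) elsewhere, with a highest of 30.4. Counting protein-coding transcripts alone, a setting chosen after seeing the data, gave a log2 fold change of 1.51 ± 0.32 for Tgfb1 (adjusted p 0.0481, edgeR) in place of 1.18. On the same basis the order of medians in skin changed, to Tgfbr2 (70.0 TPM), Tgfbr1 (36.3), Smad7 (29.6), Skil (26.8), Ltbp1 (23.4) and Tgfb1 (22.7). In muscle it changed to Tgfb3 (8.38 TPM), Tgfbr1 (7.25), Tgfbr2 (6.70), Skil (3.58) and Tgfb2 (3.46), and non-coding transcripts made up 57.3% ± 11.9 of Tgfb2 TPM there (SD, n = 10).

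Ltbp1 has a long form from the distal start and a short form from a start inside the gene, whose upstream sequences are given above, and the long form is the one known to bind the matrix more firmly. In skin the short form was the more abundant, at 15.2 ± 4.1 TPM (SD, n = 10) against 6.8 ± 2.2 for the long form, which was 27.7% ± 7.65 of the protein-coding TPM. In muscle the long form was 1.6 ± 0.3 TPM and the short form 0.75 ± 0.27, and the long form was 64.0% ± 14.2. The long-form share was 16.6% to 41.6% in the skin libraries and 43.9% to 89.3% in the muscle libraries, without overlap. Within skin it was 18.8%, 41.6% and 16.6% in CONV, which spans the range of the other 7 (22.8% to 35.0%). These are estimates, since the 2 forms share most of their sequence and muscle had 107 to 183 counts of Ltbp1 in all.

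**Figure D5:**
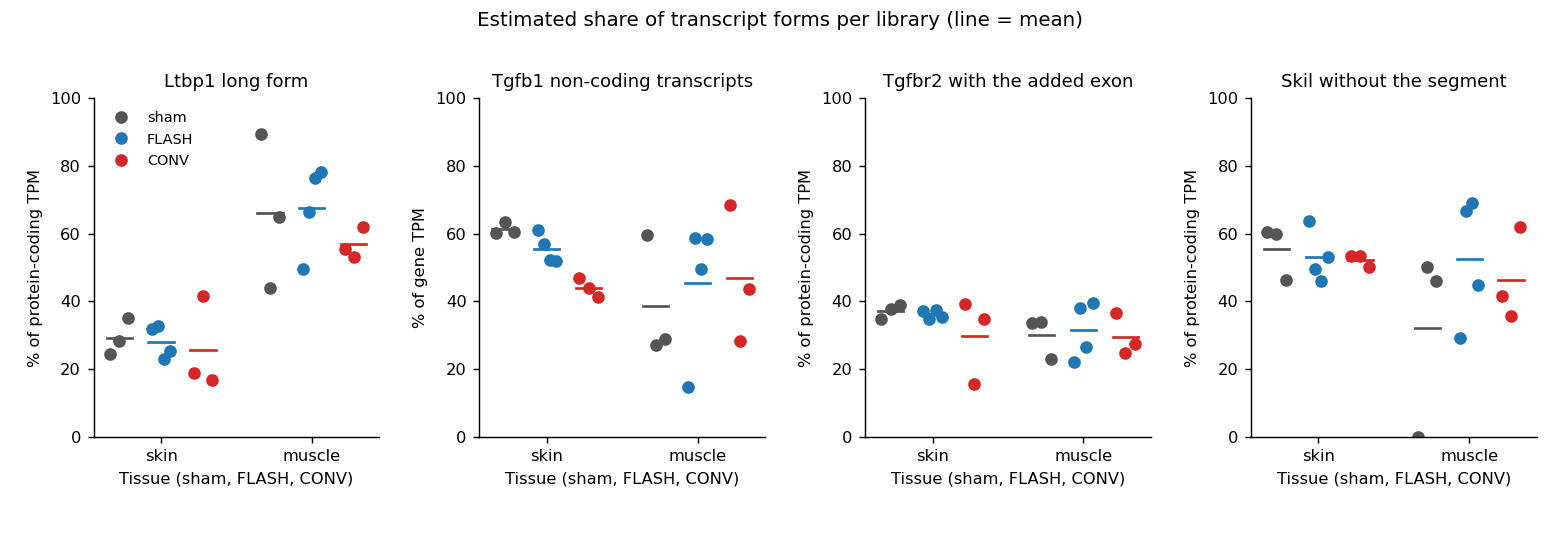
Estimated share of a transcript form in each library (vertical axis, percent), for skin and muscle, coloured by treatment with a line at the mean. The long form of Ltbp1 had a larger share in every muscle library than in any skin library, and the non-coding share of Tgfb1 was lower in the 3 CONV skin libraries than in the other 7.

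Coding sequence that some transcripts of Skil and Tgfbr2 contain and others lack is shown because it separates known protein isoforms. The Skil segment of 138 bases (46 codons) is used by the full-length SnoN form of 675 codons and left out by splicing in the shorter form of 629 codons, known as SnoN2. The Tgfbr2 segment of 75 bases (25 codons) is an exon of the longer receptor form, with 592 codons against 567. Both are read from GENCODE M21 transcripts (GRCm38).
Skil segment, chr3:31113503-31113640, plus strand: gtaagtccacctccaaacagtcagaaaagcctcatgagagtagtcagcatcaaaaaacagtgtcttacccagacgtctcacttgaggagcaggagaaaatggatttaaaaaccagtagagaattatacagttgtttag
Tgfbr2 exon, chr9:116158271-116158345, minus strand: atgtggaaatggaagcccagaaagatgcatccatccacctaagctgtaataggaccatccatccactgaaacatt
In skin the Skil form without the segment was 53.6% ± 6.1 of protein-coding Skil TPM (SD, n = 10), with 50.2% to 53.5% in CONV and 45.9% to 63.8% elsewhere. Its TPM was 20.99 ± 7.45 in CONV and 12.8 ± 3.2 in the other 7, and the full-length forms were at 18.9 ± 8.2 and 10.7 ± 3.1, so both forms had higher means and their balance stayed within the range of the other libraries. The Tgfbr2 form with the exon was 34.6% ± 6.9 in skin and 30.5% ± 6.5 in muscle (n = 10 each). In CONV skin 1 library, replicate 2, stood apart with 15.5%, against 34.7% to 39.3% in the other 9 skin libraries.

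The genes most alike in profile to the leading member of each role were sought among 17684 protein-coding genes over the 10 skin libraries, by Pearson's r of log2 CPM. These are descriptions over shared libraries and carry no test. For Tgfb1 they were Tmem119, Galnt10 and Sept9 (r 0.990, 0.987 and 0.986), and for Skil they were Cemip, Arpc3 and Snai1 (0.993, 0.990 and 0.987). For Tgfbr2 they were Swap70, Btk and St8sia4 (0.983, 0.983 and 0.978), and for Ltbp2 Tnfrsf21, Heatr5a and Ctla2b (0.951, 0.948 and 0.943). CONV replicate 3 was the highest library of all 4 members and weighs on each r.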

How the data were processed

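RNA was extracted from frozen skin and muscle and sequenced from a stranded total RNA kit after ribosomal RNA removal, per the labels' protocols. The authors deposited 1 table per library with an estimated count and a TPM value per transcript, made with kallisto 0.5.0 on mm10, as the submitters' processing notes list. The transcript release and the strand setting are not given in the sources used here. The estimated counts were not normalized by the authors.

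Transcripts were assigned to genes by identifier without version in GENCODE M21 (GRCm38). This matched 98.5% of 116116 transcripts, and 0.873% to 1.85% of a library's counts stayed unmatched. Estimated counts were summed per gene and rounded for tests, and deposited TPM values were summed per gene. CPM values use TMM scaling. kallisto divides reads shared by transcripts, so transcript shares are estimates, and overlapping genes on the other strand (at Tgfb2, Tgfb3, Inhba and Ltbp2) cannot be separated with certainty.

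Tests used the robust quasi-likelihood fit of edgeR 4.0.16 in R 4.3.3, after filterByExpr by group, and p-values were adjusted by Benjamini-Hochberg over every gene tested (threshold 0.05). A single fit served the 3 groups of a tissue, CONV against the other 7 was a 2-group fit, and the difference between tissues was an interaction over 20 libraries. Standard errors are the log2 fold change over the square root of F. The procedure was run on simulated counts with 200 changed genes. The simulated spread between libraries was lower than that estimated in skin and over all 20 libraries, and no single library deviated. The simulation therefore does not bear on how firm the skin calls are. Alternatives were other size factors, no filter, DESeq2 1.42.0, a replicate block, files assigned by library name, left-out libraries, a hair shaft covariate and, added after seeing the data, protein-coding transcripts alone. Upstream sequences are from RefSeq (GRCm38.p6).

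The members, the pathway and marker lists and the tests were chosen with earlier results of these data known. All 10 members are described. Other pathway genes are named where called, otherwise as the 2 of a list with the smallest p (Ccn2 and Acta2 are named outside this rule), and 3 genes most alike are named for the member of each role with the smallest p. The values of 1 called target gene are not reported here. Upstream sequence was not used for Smad7, Tgfb3 and Skil.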

Additional observations from a re-analysis of the deposited data

Results flagged for a closer look

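Ltbp1 in skin FLASH was flagged because 1 library was far from the others. FLASH replicate 4 held 102.0 CPM, beside 65.2, 65.2 and 70.0 CPM in replicates 1 to 3. It was the 1 flag among the 20 groups of 4 libraries checked, and chance alone flags about 1 in 20.

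Mmp14 and Col3a1 were flagged because their CONV responses differed between skin and muscle by the interaction test (edgeR, 20 libraries). The log2 fold change of Mmp14 was 2.10 higher in skin than in muscle (adjusted p 0.0343) and that of Col3a1 2.64 higher (0.0459). All 3 CONV skin libraries lay above the other 7 for both genes, as for 3.73% of all genes tested in skin. The same libraries gave the interaction calls, so this is no separate support. Mmp14 was 253 to 820 CPM against 136 to 232 CPM, and Col3a1 was 4331 to 13698 CPM against 1907 to 3563 CPM. With 1 library left out at a time, each of these 2 calls held in 5 of 20 fits, with log2 differences of 1.54 to 2.41 and 2.27 to 2.98.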

How the results depend on the processing

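In skin CONV against the other 7, 331 genes and 1 member were called. DESeq2 called 2071 genes and 3 members, RLE size factors left 0 members (Tgfb1 adjusted p 0.0529, edgeR), and leaving out the libraries of disagreeing file name, leaving out the 2 muscle-rich libraries or adding a hair shaft covariate each left 0 genes and 0 members. With 1 library left out at a time the counts ran from 0 to 1454 genes and from 0 to 3 members, and Tgfb3 from -0.17 to 0.28 on the log2 scale.

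DESeq2 called 1630 genes and 3 members in skin CONV against sham, 457 genes and 1 member in FLASH against CONV, and 4 genes in FLASH against sham, where edgeR called 0. Leave-one-out fits gave 0 to 406 genes and 0 to 1 member, 0 to 117 genes, and 0 genes, and the FLASH against sham value of Inhba ran from -0.020 to 1.103.

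In muscle CONV against the other 7 (8 genes called), the count was 53 with no filter, 159 by DESeq2, 0 without the libraries of disagreeing file name, 2 with protein-coding transcripts alone and 1 to 89 with 1 library left out. In CONV against sham (1 gene) it was 23, 49 and 0 with no filter, by DESeq2 and with protein-coding transcripts alone, 164 with files by library name, and 0 to 29 with 1 library left out. In FLASH against CONV (1 gene) it was 21 with no filter, 41 by DESeq2, 0 without the disagreeing libraries, 0 with protein-coding transcripts alone and 0 to 24 with 1 left out. DESeq2 called 1 gene in FLASH against sham. Leaving out the disagreeing libraries kept 1 sham and 1 FLASH muscle library, assumed to vary like the other groups. Members near 0 changed sign in muscle CONV against the other 7: Tgfb1 was 0.22 without the disagreeing libraries and 0.0098 with protein-coding transcripts alone. With 1 library left out Tgfb1 ran from -0.10 to 0.077, Tgfb3 from -0.17 to 0.069, Tgfbr1 from -0.032 to 0.15, Tgfbr2 from -0.0011 to 0.13 and Smad7 from -0.16 to 0.24.

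For the difference between tissues (21 genes, 0 members), DESeq2 called 467 genes and 3 members, leaving out the disagreeing libraries gave 0 genes, and leaving out 1 library gave 0 to 561 genes and 0 to 3 members. The cause of these changes was not tested.

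Replicate numbers recur across groups, but same-numbered libraries did not deviate together: r was -0.71 to 0.52 over 9 pairs in skin and -0.23 to 0.21 in muscle. With the replicate number as a block, skin CONV against the other 7 gave 1292 genes and 3 members, CONV against sham 15 genes, FLASH against CONV 1 gene and the difference between tissues 345 genes and 2 members. The block gave 0 genes in muscle CONV against sham, 0 in FLASH against CONV and 1 in CONV against the other 7, Inhba was -0.092 in skin FLASH against sham, and Tgfb1 was 0.0012 in muscle CONV against the other 7.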
